A study of Mus musculus with 3 samples.

Results

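Prostaglandins are lipid signals made from arachidonic acid, and prostaglandin E2 is required for ovulation in mice. Cyclooxygenases, encoded by Ptgs1 and Ptgs2, convert arachidonic acid to prostaglandin H2, prostaglandin E synthases (Ptges, Ptges2 and Ptges3) convert that to prostaglandin E2, and the receptors EP2 (Ptger2), EP4 (Ptger4) and FP (Ptgfr) receive prostaglandin E2 or F2 alpha at the cell surface. The signal ends when the transporter encoded by Slco2a1 takes prostaglandins into the cell and 15-hydroxyprostaglandin dehydrogenase, encoded by Hpgd, oxidizes them. In granulosa cells, the hormone-producing cells that line the follicle, Ptgs2 is known as an early target of the luteinizing hormone surge.

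These 10 genes, chosen by name from the 21887 protein-coding genes of the annotation, are described here by trimethylation of lysine 4 on histone H3 (H3K4me3), a mark found at the promoters of active genes. Granulosa cells came from wild type C57BL/6 female mice on postnatal days 21 to 28. All mice had received 4 IU of eCG, which acts like FSH and promotes follicle growth, and cells were taken by puncturing follicles before hCG (0 h), or 4 h or 12 h after 5 IU of hCG, which stands in for the ovulatory surge. Each time had 1 library, so no difference has a replicate check and no test was made. The sources used here do not give how many mice a library holds. Values are the base pairs covered by the authors' peaks inside a gene or within 5 kb of either end (covered bp), and a gene with at least 1 such peak is called marked.

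The 0 h, 4 h and 12 h lists held 22236, 23662 and 20669 peaks, and their total coverage was 8.87, 10.1 and 8.93 Mb. The narrowest peaks of the lists measured 136, 139 and 152 bp, so a covered bp value near these can be a single peak of the smallest width. Where a peak crosses the edge of a gene's window only the part inside counts, so covered bp can be lower still. Sequencing depth is unknown, and a gene without a peak may carry signal below the authors' threshold. The peak names of the 12 h list lack a tag (nolambda) that those of the other lists carry, and the labels place the 12 h library in lane 5 and the others in lane 4, so library and time cannot be told apart. Of 9 granulosa cell markers, 7, 8 and 6 were marked at 0 h, 4 h and 12 h, with summed covered bp of 10022, 6626 and 2649. Of 40 markers of theca cells, oocytes, immune cells, endothelium, stroma and surface epithelium, 7, 11 and 8 were marked, with summed covered bp of 4622, 7037 and 4805. Of these other markers, 26 were marked at no time, among them Cyp17a1 (theca), Zp3 (oocyte), Adgre1 (macrophage), Pecam1 and Cdh5 (endothelium) and Dcn (stroma). Others of these markers were marked, with 903, 1670 and 1199 bp at 0 h, 4 h and 12 h at Ptch1 and 864, 789 and 1220 bp at Gli1, both of the theca list. Cyp11a1 of that list, which luteinizing granulosa cells also express, had 0, 437 and 353 bp, the oocyte gene Gdf9 810, 1166 and 530 bp, and the macrophage gene Cd68 838, 1529 and 891 bp. The endothelial genes Kdr and Erg had 347 and 170 bp at 4 h, against 0 bp at 0 h, and the leukocyte gene Ptprc had 139 bp at 4 h, against 0 bp at 0 h. Sox18 of the endothelial list had 302 bp at 0 h alone, and Hsd3b6 of the theca list 38 bp at 4 h alone. Of the stroma list, Pdgfra had 192 bp at 12 h alone and Myh11 139 bp at 4 h alone. The surface epithelium gene Krt8 had 765, 613 and 256 bp at 0 h, 4 h and 12 h. Krt18 of that list had 140 bp at 0 h alone. At Cd68, Ptprc, Hsd3b6 and Pdgfra no peak came within 1 kb of the gene's own RefSeq start of transcription. For Gdf9, Gli1, Sox18 and Myh11 no such start was available. Ptch1, Cyp11a1, Kdr, Erg, Krt8 and Krt18 had a peak within 1 kb of a start of their own in at least 1 library. Of the granulosa cell markers, Fshr, Cyp19a1 and Inha had such a peak in at least 1 library. At the marked genes Foxl2, Inhba and Nr5a2 no peak came within 1 kb of an own start. For Gata4 and Hsd17b1, also marked, no start was available. The part of other cell types in the values below was not tested.

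Of the 10 prostaglandin genes, 5 were marked at 0 h, 8 at 4 h and 8 at 12 h, against 56.3%, 58.3% and 56.2% of all protein-coding genes. Ptges, Ptges2, Ptges3, Ptger2 and Hpgd were marked at all 3 times, as were 53.0% of all genes. Ptgs2 was marked at 4 h alone (1.81% of all genes) and Ptgs1 at 12 h alone (0.941%). Ptger4 and Slco2a1 were marked at 4 h and 12 h but not at 0 h (1.63%), and Ptgfr at no time (39.3%). Thus 4 of the 9 genes marked at any time were marked at 1 or 2 of the times, against 12.6% of the 13281 protein-coding genes marked at any time. The 10 genes were chosen with earlier results of these data known, so the comparisons with all genes are descriptions alone.

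The promoters printed next are those of the genes whose marking differed between times, with the constantly marked Ptges3 and the unmarked Ptgfr for comparison. Each runs 5′ to 3′ on the gene's own strand, from 250 bases before the RefSeq start of transcription to 50 bases from it on, in build GRCm38.p6, of which mm10 is another name. Ptgs2 lies at chr1:150099781-150100080 (plus strand), Ptgs1 at chr2:36230176-36230475 (plus), Slco2a1 at chr9:103008237-103008536 (plus), Ptger4 at chr15:5244138-5244437 (minus), Ptges3 at chr10:128058732-128059031 (plus) and Ptgfr at chr3:151837479-151837778 (minus). Capitals mark matches on either strand to the motifs described after the sequences.
Ptgs2: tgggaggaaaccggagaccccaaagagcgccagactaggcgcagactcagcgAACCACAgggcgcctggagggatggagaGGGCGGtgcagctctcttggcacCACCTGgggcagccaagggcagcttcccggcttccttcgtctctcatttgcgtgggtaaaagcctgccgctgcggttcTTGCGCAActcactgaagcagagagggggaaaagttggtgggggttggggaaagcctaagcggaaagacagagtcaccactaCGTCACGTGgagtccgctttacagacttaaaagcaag
Ptgs1: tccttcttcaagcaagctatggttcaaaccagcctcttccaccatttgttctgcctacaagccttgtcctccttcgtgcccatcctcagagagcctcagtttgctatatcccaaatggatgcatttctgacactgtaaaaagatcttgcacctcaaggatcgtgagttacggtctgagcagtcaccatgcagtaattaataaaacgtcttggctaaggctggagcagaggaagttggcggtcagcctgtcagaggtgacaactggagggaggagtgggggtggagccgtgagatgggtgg
Slco2a1: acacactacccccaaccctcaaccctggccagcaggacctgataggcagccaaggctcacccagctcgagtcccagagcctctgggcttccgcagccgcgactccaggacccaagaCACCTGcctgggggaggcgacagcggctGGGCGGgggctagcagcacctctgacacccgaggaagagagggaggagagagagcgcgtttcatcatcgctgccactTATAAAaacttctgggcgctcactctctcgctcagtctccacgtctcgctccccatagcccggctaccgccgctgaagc
Ptger4: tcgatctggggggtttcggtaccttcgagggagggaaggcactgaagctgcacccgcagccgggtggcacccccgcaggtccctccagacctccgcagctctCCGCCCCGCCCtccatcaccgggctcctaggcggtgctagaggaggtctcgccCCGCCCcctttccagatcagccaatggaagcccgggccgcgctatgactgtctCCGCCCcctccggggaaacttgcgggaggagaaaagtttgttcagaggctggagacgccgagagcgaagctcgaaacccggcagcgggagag
Ptges3: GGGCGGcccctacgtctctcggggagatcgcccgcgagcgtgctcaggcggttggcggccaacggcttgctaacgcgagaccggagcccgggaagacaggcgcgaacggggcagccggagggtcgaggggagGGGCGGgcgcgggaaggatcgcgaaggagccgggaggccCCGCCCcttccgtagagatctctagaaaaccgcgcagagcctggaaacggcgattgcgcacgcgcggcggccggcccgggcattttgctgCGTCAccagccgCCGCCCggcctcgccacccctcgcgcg
Ptgfr: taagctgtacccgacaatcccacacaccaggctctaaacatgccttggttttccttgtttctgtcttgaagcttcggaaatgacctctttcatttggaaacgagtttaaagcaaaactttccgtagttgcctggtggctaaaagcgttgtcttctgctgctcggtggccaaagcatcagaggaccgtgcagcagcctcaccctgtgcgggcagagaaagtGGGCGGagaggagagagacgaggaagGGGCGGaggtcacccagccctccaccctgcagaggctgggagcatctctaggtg

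The motifs searched on both strands included TGACGTCA, the cyclic AMP response element (CRE), and its shorter form TGACG. The E-box was searched as CACGTG, as CAGGTG and also as CATGTG. The others were TGACTCA for AP-1, GGGCGG for the GC box, TATAAA for the TATA box, AAGGTCA for SF-1, TTGCGCAA for C/EBP and AACCACA for RUNX. The Ptgs2 promoter held the C/EBP letters 69 to 62 bases before the start, and these letters occur in 0.183% of the 32851 promoters of the table. It also held the RUNX letters, found in 5.27% of promoters, a GC box (35.7%) and CAGGTG on the other strand (20.2%). The short CRE form (20.8%) and CACGTG (7.15%) lay just after the annotated start and overlap each other, within the run CGTCACGTG. Of the 10 genes, the C/EBP and RUNX letters were found in Ptgs2 alone. The full CRE (1.79% of promoters), CATGTG (14.2%) and the AP-1 (5.2%) and SF-1 (4.72%) letters were found in none of the 10. GC boxes were found in 7 of the 10 promoters, including 4 in Ptger4, 4 in Ptges3 and 2 in Ptgfr. Slco2a1 held a TATA box 29 to 24 bases before its start, and Ptgs1 held none of the motifs. A match describes the letters alone, and no binding was measured in this series.

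Among the cyclooxygenase genes, Ptgs2, which encodes the inducible enzyme, had 0 covered bp at 0 h, 794 bp at 4 h and 0 bp at 12 h. The 4 h coverage came from 4 separate peaks, all inside the gene, at chr1:150100170-150100448 (279 bp), chr1:150100676-150100819 (144 bp), chr1:150101210-150101415 (206 bp) and chr1:150102012-150102176 (165 bp). They began 139 bp and ended 2145 bp downstream of the RefSeq start, and with the gaps between them filled they spanned 2007 bp. The peaks of 144 and 165 bp were below the 25th percentile of width in that library (187 bp), and those of 279 and 206 bp were above it. By covered bp, Ptgs2 ranked 4 among the 396 protein-coding genes marked at 4 h alone, whose median was 182.5 bp. The lncRNA gene Ptgs2os lies just upstream of the Ptgs2 start, and 2 of the 4 peaks came within 1 kb of its nearer end.

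Ptgs1, which encodes the cyclooxygenase that many tissues express constantly, had 0 bp at 0 h, 0 bp at 4 h and 704 bp at 12 h. Its peaks lay at chr2:36230597-36230782 (186 bp) and chr2:36230932-36231449 (518 bp), from 171 to 1023 bp downstream of the RefSeq start printed above, which is inside the annotated gene because other transcript models begin farther upstream. Ptgs1 ranked 10 by covered bp among the 206 genes marked at 12 h alone, whose median was 202.5 bp. The cyclooxygenase genes were thus never marked in the same library. Because Ptgs1 rests on the 12 h library, its value cannot be told apart from the lane and peak-name differences of that library.

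**Figure D1:**
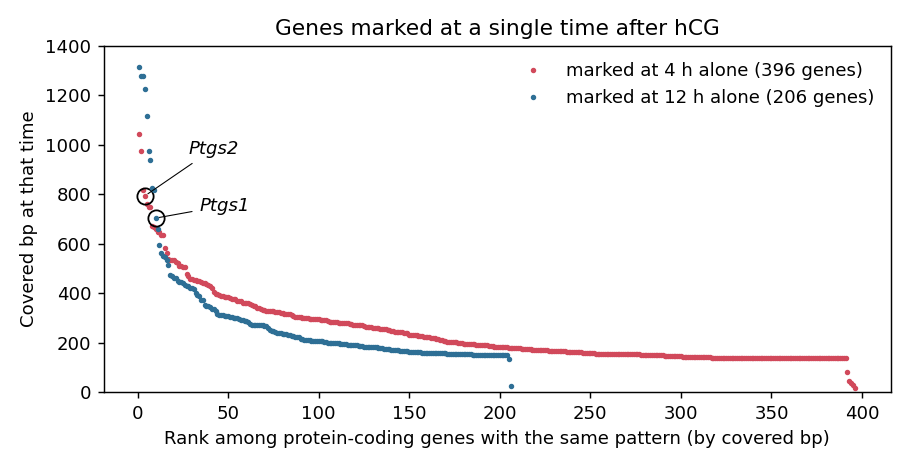
Covered bp (vertical axis) of every protein-coding gene marked at 4 h alone (red, 396 genes) or at 12 h alone (blue, 206 genes), ordered by rank (horizontal axis), 1 point per gene and 1 library per time. The circled points are Ptgs2, with 794 bp at rank 4, and Ptgs1, with 704 bp at rank 10, both on the steep left part of the curves.

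The protein-coding genes closest to Ptgs2 in covered bp over the 3 times (Euclidean distance of log2(covered bp + 100)) were Nhsl2 and Sult1e1, followed at equal distance by Ptx3 and Veph1. Nhsl2 had 0, 819 and 0 bp at 0 h, 4 h and 12 h, at a distance of 0.04. Sult1e1, the estrogen sulfotransferase gene, had 0, 759 and 0 bp at a distance of 0.06. Ptx3, whose product helps to hold the expanded cumulus matrix together, had 0, 747 and 0 bp at a distance of 0.08. The annotated span of Veph1 contains Ptx3, and Veph1 had the same covered bp. The measure rests on 3 values per gene and describes these libraries alone.

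The prostaglandin E synthase genes were marked throughout. Ptges encodes the inducible microsomal synthase that works with the Ptgs2 product, and it had 952 bp at 0 h, 528 bp at 4 h and 491 bp at 12 h. At 0 h it had peaks at chr2:30901904-30902486 (583 bp) and chr2:30902585-30902953 (369 bp). At 4 h and 12 h a single peak remained, of 528 and 491 bp, which overlapped both places. The 4 h value was 0.55 times the 0 h value, and the 12 h value 0.52 times the 0 h value, so both missed the 2-fold limit. Ptges was the only synthase gene with fewer covered bp at 4 h than at 0 h, at a log2 ratio of -0.85, against a median of 0.12 over the 12004 protein-coding genes marked at both times. The lncRNA gene Gm52550 lies across the Ptges start, and all 4 Ptges peaks of the 3 libraries came within 1 kb of its ends. With peaks near another gene's end left out, Ptges was therefore not marked, with 0 bp at 0 h, 4 h and 12 h.

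Ptges2, which encodes a second membrane-associated synthase, had 959 bp at 0 h, 1323 bp at 4 h and 1037 bp at 12 h. A broad peak inside the gene was present in each library, with widths of 801, 735 and 766 bp. The rest lay around the start, where 0 h had 1 peak of 158 bp, 4 h had peaks of 249, 186 and 153 bp and 12 h had 1 peak of 271 bp. The higher 4 h value was therefore made of narrow peaks around the start, while the main peak was slightly narrower than at 0 h. With peaks below the 25th percentile of width left out, Ptges2 had 801, 984 and 1037 bp at 0 h, 4 h and 12 h.

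Ptges3 encodes p23, a cochaperone of Hsp90 that also has cytosolic prostaglandin E synthase activity. It had 1442 bp at 0 h, 1452 bp at 4 h and 1429 bp at 12 h, the most covered bp of the 10 genes at each time. Its main peak measured 1300, 1232 and 1195 bp and began 125, 95 and 127 bp downstream of the start. A small peak upstream of the start was present at 0 h (142 bp) and 12 h (234 bp) and not at 4 h, when a 220 bp peak lay at the downstream side instead. By these values Ptges3 varied least among the marked genes, with a log2 ratio of 0.01 for 4 h over 0 h and -0.02 for 12 h over 4 h.

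**Figure D2:**
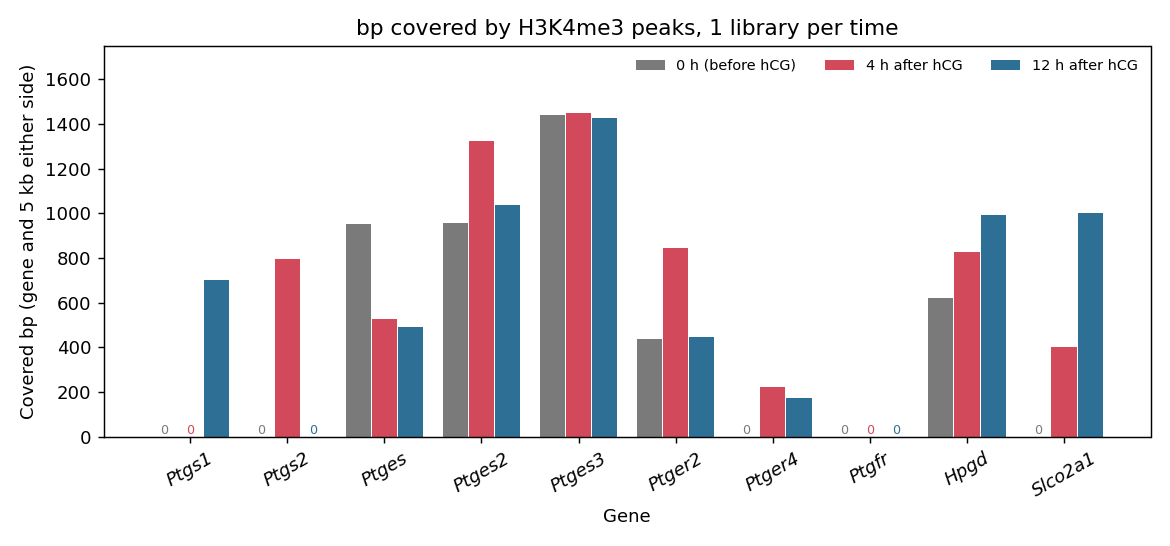
Covered bp (vertical axis, gene and 5 kb either side) of each of the 10 genes at 0 h (grey), 4 h (red) and 12 h (blue), 1 library per bar and therefore no error bars. A 0 marks a time without a peak: Ptgs2 has a bar at 4 h alone (794 bp), Ptgs1 at 12 h alone (704 bp), and the Ptges3 bars lie between 1429 and 1452 bp.

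The receptor genes differed from each other. Ptger2 encodes EP2, which raises cyclic AMP and is needed for cumulus expansion in mice. It had 438 bp at 0 h, 845 bp at 4 h and 446 bp at 12 h. The 0 h coverage came from peaks of 143 and 295 bp, and 4 h had 1 peak of 845 bp at chr14:44988782-44989626 that spanned both, while 12 h had 1 peak of 446 bp within the same stretch. The 4 h value was 1.93 times the 0 h value, and the 12 h value was 0.53 times the 4 h value, each just short of 2-fold. These peaks lay 671 to 1515 bp downstream of the RefSeq start, and none came nearer to it.

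Ptger4 encodes EP4, which also raises cyclic AMP. It had 0 bp at 0 h, 222 bp at 4 h and 174 bp at 12 h, the lowest values among the marked genes at those times. The 4 h peak (chr15:5243516-5243737) lay 450 to 671 bp downstream of the start and the 12 h peak (chr15:5243861-5244034) 153 to 326 bp downstream, and they did not overlap. With 174 bp, the 12 h peak was below the 25th percentile of width in its library (211 bp). Ptger4 ranked 286 by covered bp at 12 h among the 357 genes marked at 4 h and 12 h alone. Ptgfr encodes FP, the receptor through which prostaglandin F2 alpha acts on the corpus luteum, and it had 0 bp at 0 h, 4 h and 12 h.

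Among the genes of prostaglandin removal, Slco2a1, the transporter gene, had 0 bp at 0 h, 402 bp at 4 h and 1004 bp at 12 h. At 4 h the peaks lay at chr9:103008738-103008882 (145 bp) and chr9:103009144-103009400 (257 bp). At 12 h both places were covered again, by peaks of 338 and 500 bp, and another peak of 166 bp lay farther into the gene. The 12 h value was 2.50 times the 4 h value. Slco2a1 ranked 14 by covered bp at 12 h among the 357 genes with its pattern, whose median was 306 bp. It was the only one of the 10 genes with at least 2-fold more covered bp at 12 h than at 4 h and a peak at both times. Within 1 kb of the RefSeq start the difference was under 2-fold, at 702 bp in the 12 h library against 402 bp in the 4 h library. When each list was reduced to the same number of its widest peaks, Slco2a1 had 1004 bp at 12 h, against 257 bp at 4 h.

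Hpgd, which encodes the inactivating dehydrogenase, had 623 bp at 0 h, 829 bp at 4 h and 994 bp at 12 h. The 0 h library had 1 peak, at chr8:56294575-56295197. The 4 h library had peaks of 446 and 383 bp, and the 12 h library peaks of 153, 388 and 453 bp, the first of them 660 to 508 bp upstream of the start. The 12 h value was 1.60 times the 0 h value. With no flank, Hpgd had 623, 812 and 632 bp at 0 h, 4 h and 12 h, so its highest value at 12 h depends on the peaks at and upstream of the start.

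**Figure D3:**
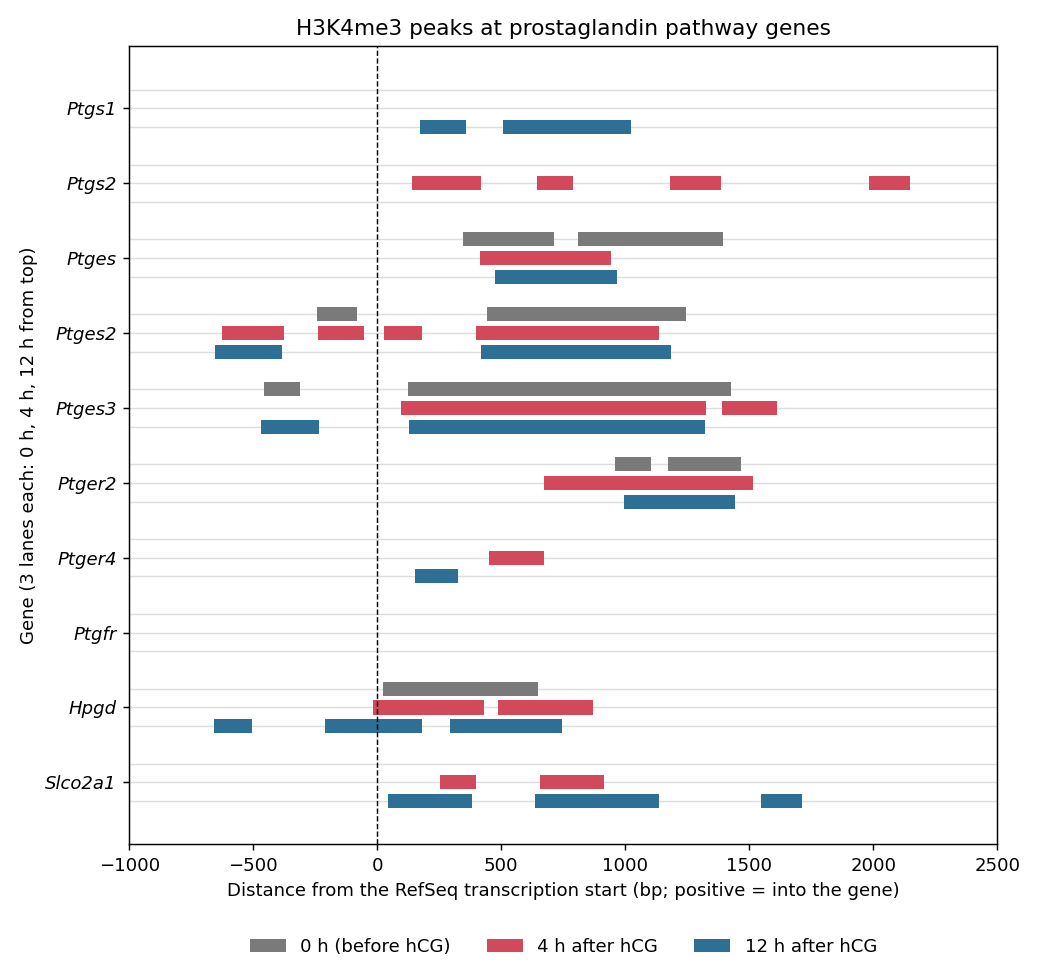
Peaks of the 10 genes as bars along the distance from the RefSeq start (horizontal axis in bp, dashed line at the start, positive into the gene), with 3 lanes per gene from top to bottom for 0 h (grey), 4 h (red) and 12 h (blue). Of the 41 peaks, 32 lie wholly to the right of the line, Ptgs2 shows 4 separate pieces at 4 h alone, and Ptgfr shows none.

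Between 4 h and 0 h, 3 of the 8 genes marked at either time had at least 2-fold more covered bp at 4 h (Ptgs2, Ptger4 and Slco2a1), against 12.1% of the 13075 protein-coding genes marked at either time. None of the 8 had at least 2-fold fewer, against 5.06%. Between 12 h and 4 h, 2 of 9 genes had at least 2-fold more covered bp at 12 h (Ptgs1 and Slco2a1), against 4.74%, and 1 of 9 (Ptgs2) had at least 2-fold fewer, against 11.9%. Between 12 h and 0 h, 3 of 8 had at least 2-fold more at 12 h (Ptgs1, Ptger4 and Slco2a1), against 9.08%, and 0 of 8 had fewer, against 9.26%. In 8 of these 9 changes, counted over the comparisons, the lower value was 0, and the comparisons share libraries. For the genes marked at both times, the median log2 ratio was 0.41 over 5 genes for 4 h over 0 h, against 0.12 over all genes. It was -0.10 over 7 genes for 12 h over 4 h, against -0.14, and 0.03 over 5 genes for 12 h over 0 h, against -0.02. With 5 to 7 genes and no replicates, these medians describe the libraries alone.

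The rule that chose the genes sets no place for a peak inside the windows. All 41 peaks lay between 660 bp upstream and 2145 bp downstream of the RefSeq start, although 5 kb on both sides and whole genes of up to 88942 bp (Slco2a1) were searched. Over the 14731 protein-coding genes with a single start in the promoter table, 77.7%, 76.7% and 78.0% of the peaks at 0 h, 4 h and 12 h lay between 2000 bp upstream and 2500 bp downstream, limits chosen after the peaks were seen. Of the 41 peaks, 32 were wholly downstream of the start and 7 wholly upstream, and 2, both at Hpgd, covered it. Over all those genes 70.8% to 72.1% of peaks were wholly downstream and 2.95% to 4.00% covered the start. Overlapping by at least 1 bp, 8 of the 9 peaks of 0 h had a counterpart at 4 h, against 82.0% of all 0 h peaks, and 8 had one at 12 h, against 75.2%. With at least 50% of both peaks overlapping, 5 of 9 had a counterpart at 4 h and 5 of 9 at 12 h, against 56.1% and 50.5% of all 0 h peaks. Of the 17 peaks of 4 h, 8 had a counterpart of at least 1 bp at 0 h and 9 at 12 h, against 73.8% and 72.3% of all 4 h peaks. By the 50% rule 5 and 7 had one, against 52.7% and 52.0%. Of the 15 peaks of 12 h, 7 had a counterpart of at least 1 bp at 0 h and 9 at 4 h, against 78.5% and 84.4%. By the 50% rule 5 and 7 had one, against 54.4% and 59.6%. A gene without a peak at the other time, such as Ptgs2 at 0 h, can give no counterpart, so these counts partly restate the marking.

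CpG content of the promoters, which is known to go with H3K4me3, varied widely among the 10 genes. The ratio of observed to expected CpG in the 300 bases was 1.14 at Ptges3, above 98.4% of the promoters of single-start genes. It was 0.74 at Ptger4, 0.70 at Ptges2, 0.62 at Ptgs2 and 0.60 at Slco2a1. It was 0.50 at Ptgfr, 0.48 at Hpgd, 0.37 at Ptges, 0.31 at Ptgs1 and 0.28 at Ptger2. Of all single-start genes with a ratio between 0.5 and 0.75, 73.8%, 76.5% and 73.5% were marked at 0 h, 4 h and 12 h, and of the 4 prostaglandin genes in that range Ptges2 was marked at all times and Ptgs2, Ptger4 and Slco2a1 were not marked at 0 h. Of those with a ratio between 0.25 and 0.5, 34.6%, 37.3% and 34.3% were marked, and of the 5 prostaglandin genes in that range Ptges, Ptger2 and Hpgd were marked at each time, Ptgs1 at 12 h alone and Ptgfr, whose unrounded ratio is below 0.5, at no time. The Ptger2 window is distant from its peaks, so its composition may not be that of the marked stretch.

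**Figure D4:**
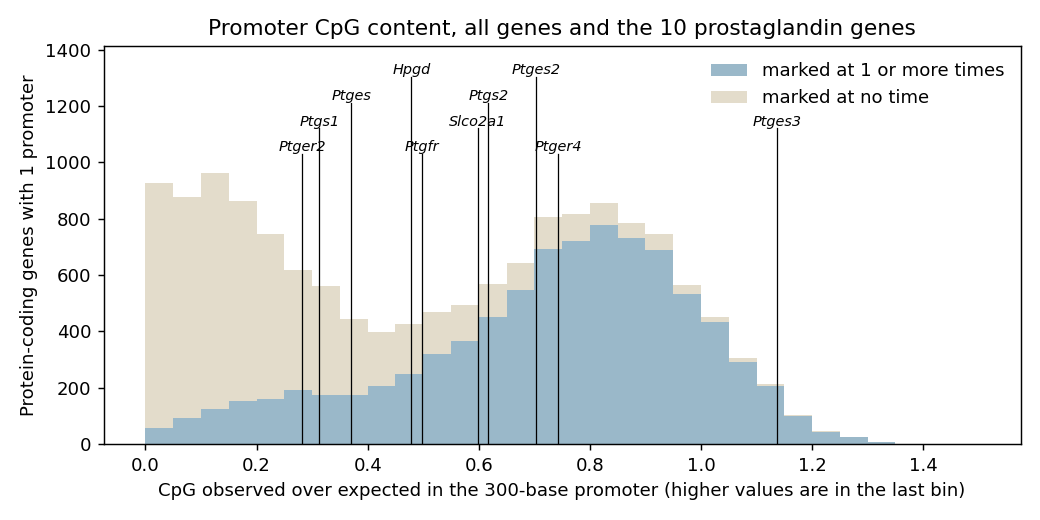
Number of protein-coding genes with 1 promoter (vertical axis) by the ratio of observed to expected CpG in 300 bases (horizontal axis), stacked as genes marked at 1 or more times (blue) and at no time (sand), with lines at the 10 prostaglandin genes. Ptges3 (1.14) lies at the far right among genes that are nearly all marked, and Ptger2 (0.28) and Ptgs1 (0.31) lie at the left where most genes are unmarked.

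A list of 40 other prostanoid and arachidonate genes was measured in the same way. It had 17, 17 and 20 genes marked at 0 h, 4 h and 12 h, against 56.3%, 58.3% and 56.2% of all protein-coding genes. Of the 40, 15 were marked at all times (53.0% of all genes) and 19 at no time (39.3%). Of 6 other prostanoid receptor genes, 5 (Ptger1, Ptger3, Ptgdr, Ptgir and Tbxa2r) had 0 bp at every time, and Ptgdr2 had 63 bp at 0 h alone, from the edge of a peak that starts beyond its far end, inside the neighbouring gene Ccdc86. Of 7 phospholipase A2 genes, 2 were marked, at all times. They were Pla2g6 and Pla2g4a, the gene of the cytosolic enzyme that releases arachidonic acid, with 368 bp at 0 h, 639 bp at 4 h and 467 bp at 12 h. Pla2g6 and Pla2g4a are named for their role and not for a change.

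Of the 40, 3 had at least 2-fold more covered bp at 4 h than at 0 h (of 19 marked at either time) and 3 had fewer. Among all protein-coding genes marked at either time, these shares were 12.1% and 5.06%. Between 12 h and 4 h, 5 of 20 had more and 2 had fewer at 12 h, against 4.74% and 11.9% of all genes. Between 12 h and 0 h, 6 of 21 had more and 3 had fewer at 12 h, against 9.08% and 9.26%. Ptgfrn, whose product binds to FP and inhibits it, had 356, 837 and 1180 bp at 0 h, 4 h and 12 h, and the carbonyl reductase gene Cbr3 had 0, 417 and 509 bp, both with peaks within 1 kb of their own start. Anxa1, which encodes a phospholipase A2 inhibitor, had 204, 147 and 808 bp, and Lta4h, the gene of leukotriene B4 synthesis, had 1218, 962 and 330 bp. Prxl2b, a prostaglandin F synthase gene, had 520, 267 and 230 bp, and Akr1b8 had 0, 0 and 167 bp. Ptgis, the prostacyclin synthase gene, had 663, 160 and 474 bp, and its start was not in the promoter table. At 3 more of the listed genes with a 2-fold change, no peak came within 1 kb of the gene's own RefSeq start. They were the 5-lipoxygenase gene Alox5 (0, 829 and 278 bp), whose peaks lay beyond its far end, Cbr2 (215, 0 and 276 bp) and the leukotriene C4 synthase gene Ltc4s (0, 0 and 248 bp).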

How the data were processed

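H3K4me3 ChIP-seq of granulosa cells was deposited as 1 list of peak positions per library, with no score, height or depth, and the submitters' processing notes name CASAVA 1.8, Bowtie2 2.2.3, MACS2 2.0.9 and mm10. For thresholds and any use of the input, nothing was found in the sources, and per the labels libraries had 18 PCR cycles. Peaks outside the autosomes (1 to 19), X and Y were dropped, and the others intersected with RefSeq GRCm38.p6 protein-coding genes extended by 5 kb, using Python 3.11.15, numpy 2.4.6 and pandas 2.3.3. All 10 genes matched by symbol, in the gene table and in the promoter table, whose sequences are RefSeq's. Distances count the start base as 0. A change means at least 2-fold more or fewer covered bp, 0 included. The counting was tested on simulated data. A planned comparison of protein sequences was not run. Genes are named by a rule: the 10 genes, listed genes past 2-fold and the 3 genes closest to Ptgs2 with any tie, with Pla2g4a and Pla2g6 and the cell type markers named besides. The 10 genes and the lists were chosen with earlier results of these data known, and the grouping of the list by role followed inspection. Alternatives were flanks of 0, 2 and 10 kb, peaks below the 25th width percentile left out, equal numbers of the widest peaks, joining peaks within 1 kb, 1 kb around the start, peaks near another gene's end left out, and scaling to total covered bp.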

Additional observations from a re-analysis of the deposited data

How the results depend on the processing

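The numbers of marked genes at each time stayed within 1.5 times of those reported under every alternative. Ptgs2 at 4 h and Ptgs1 at 12 h had peaks under each of the 9 alternatives and at no other time. All alternatives use the same peak lists, and only the 10 kb flank could have added a peak at another time. For differences in covered bp between times at Ptgs1, Ptgs2, Ptger4 and Slco2a1, 15 recounts moved by more than 1.5 times and 66 did not. Of 78 recounts of numbers of genes, 6 moved by more than 1.5 times. Counting within 1 kb of the RefSeq start gave 1 gene (Ptgs1, without Slco2a1) with at least 2-fold more covered bp at 12 h than at 4 h, 2 with fewer (Ptgs2 and Ptger2) and 1 with fewer at 12 h than at 0 h (Ptger2, whose peaks that window cuts through). Leaving out narrow peaks gave 2 genes with fewer at 12 h than at 4 h (Ptgs2 and Ptger4), since the 12 h peak of Ptger4 falls out. Joining peaks within 1 kb gave 1 gene with fewer at 12 h than at 0 h (Ptges), and scaling to total covered bp gave 1 with fewer at 4 h than at 0 h (Ptges). Joined, Hpgd had 1406 bp at 12 h against 623 bp at 0 h, more than 2-fold. With narrow peaks left out or within 1 kb of the start, Ptger2 had at least 2-fold more at 4 h than at 0 h. The time of the highest value turned at Hpgd to 4 h with no flank, and at Ptges2 to 12 h with narrow peaks left out or peaks joined. At Ptges3 it turned to 0 h with peaks joined or scaled, and to 12 h within 1 kb of the start. Joined, Ptgs2 had 2007 bp at 4 h, and without peaks near the end of another gene it had 371 bp. Without such peaks Ptges had 0 bp at 0 h, 4 h and 12 h and was no longer marked. With a 10 kb flank, Ptges3 had 2584, 2712 and 2455 bp at 0 h, 4 h and 12 h, and the other 9 genes had the values given for 5 kb. No paired analysis was possible because each time has 1 library. Peak lists without depth do not show whether an absent peak is absent signal.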
